A study of Mus musculus with 2 samples.

Results

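The peaks of open chromatin described here are those assigned to genes of fibroblast growth factor (FGF) signaling in cardiac progenitor cells (CPCs). They were chosen by gene symbol alone: an interval of the deposited peak list belonged to the set when its nearest transcription start site (TSS) was that of a gene named Fgf with a number, of the receptors Fgfr1 to Fgfr4 or Fgfrl1, of the inhibitors Spry1 to Spry4, Spred1 to Spred3 or Dusp6, or of the targets Etv4 or Etv5. The rule covers 37 mouse genes and found 81 distinct peaks of 26232 in the list, assigned to 28 of these genes. The peaks came from ATAC-seq, in which the Tn5 transposase cuts and tags accessible DNA. There was 1 group with 2 replicates, day 5 CPCs grown by directed differentiation from E14 Tg(Nkx2–5-EmGFP) mouse embryonic stem cells (strain C57BL/6 per the labels, passages 16-20). Nkx2-5 is an early heart transcription factor, and EmGFP marks the cells that turn it on. Both replicates carried the reporter and neither carried a knockdown; per the study's methods they were 2 independent differentiations, with 100000 cells per library. All cells had been exposed to FGF ligands before the assay, since the last medium contained 10 ng/ml bFGF and 25 ng/ml FGF10 together with 5 ng/ml VEGF. Earlier steps used 10 ng/ml BMP4 for 2 days, then 5 ng/ml activin A, 5 ng/ml VEGF and 0.2 ng/ml BMP4. There were no cells without FGF to set beside them, so nothing here measures a response to FGF.

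The deposited list gives, for both replicates together, 1 set of intervals that were called in both. It has no height, no score and no value per replicate, so read depth was unknown and every value below is a position, a width or a count in that 1 list. Intervals given in parentheses after a share are Wilson intervals at the 95% level. They describe counting error over peaks or genes, and the spread between differentiations is not part of them. A gene without a peak is a gene without an interval in the list analyzed here, which is no measurement of closed chromatin. All positions are on mm9, and a distance runs from the assigned TSS to the peak midpoint, upstream or downstream in the direction of transcription.

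FGFs are secreted ligands that bind receptor tyrosine kinases on the cell surface, with heparan sulfate or Klotho proteins as co-receptors. Bound receptors signal through the Ras, Raf, MEK and ERK kinases to transcription factors, among them the ETS factors Etv4 and Etv5. The pathway limits itself: ERK signaling turns on Sprouty and Spred proteins, which act on the Ras to Raf steps, and Dusp6, a phosphatase that inactivates ERK. In the embryo, Fgf8 and Fgf10 are known as signals of the second heart field, the source of cells that add the outflow tract and right ventricle, and both genes are textbook markers of that field.

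The regions that carry the sequence features described further on are printed here from the mm9 plus strand, 5′ to 3′. Capitals mark matches, on either strand, to the GATA motif AGATAA, the LIM homeodomain motif CTAATG (the letters bound by Isl1-type factors), the NKX motifs CACTTAA or CACTCAA, the TEAD motif GGAATG, or the CArG box bound by serum response factor; no matches overlapped. A match is a run of letters and not a measured binding site. The central 300 bp of 5 FGF peaks held 3 or more such matches and are shown for that reason. They lay 22753 bp downstream of the Dusp6 TSS, 93883 bp downstream of Spry2, 125424 bp downstream of Fgfr2, 16250 bp upstream of Fgfr3 and 377 bp downstream of the Fgfrl1 TSS.
Dusp6, chr10:98748469-98748768: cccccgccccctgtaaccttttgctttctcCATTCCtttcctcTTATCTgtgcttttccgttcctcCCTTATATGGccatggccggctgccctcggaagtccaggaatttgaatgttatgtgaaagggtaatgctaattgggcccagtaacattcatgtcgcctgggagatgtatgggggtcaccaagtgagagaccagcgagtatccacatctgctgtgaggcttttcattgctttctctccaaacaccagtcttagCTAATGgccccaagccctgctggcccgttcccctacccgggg
Spry2, chr14:106202005-106202304: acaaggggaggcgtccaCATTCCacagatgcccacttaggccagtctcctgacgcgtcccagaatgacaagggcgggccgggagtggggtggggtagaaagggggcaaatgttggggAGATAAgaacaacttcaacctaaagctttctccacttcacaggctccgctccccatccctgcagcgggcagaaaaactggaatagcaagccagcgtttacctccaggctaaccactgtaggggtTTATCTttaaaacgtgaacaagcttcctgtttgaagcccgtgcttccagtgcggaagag
Fgfr2, chr7:137284750-137285049: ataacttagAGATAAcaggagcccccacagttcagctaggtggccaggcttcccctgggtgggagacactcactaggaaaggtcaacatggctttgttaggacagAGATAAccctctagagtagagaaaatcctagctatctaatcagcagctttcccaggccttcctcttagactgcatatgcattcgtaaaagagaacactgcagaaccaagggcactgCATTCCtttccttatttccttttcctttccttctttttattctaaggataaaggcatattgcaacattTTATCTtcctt
Fgfr3, chr5:34047974-34048273: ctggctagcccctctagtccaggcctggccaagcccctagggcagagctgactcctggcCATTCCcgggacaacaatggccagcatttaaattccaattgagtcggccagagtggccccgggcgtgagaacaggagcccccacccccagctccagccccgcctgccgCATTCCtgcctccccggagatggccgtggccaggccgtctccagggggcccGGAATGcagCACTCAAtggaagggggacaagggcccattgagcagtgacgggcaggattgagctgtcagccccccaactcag
Fgfrl1, chr5:109123477-109123776: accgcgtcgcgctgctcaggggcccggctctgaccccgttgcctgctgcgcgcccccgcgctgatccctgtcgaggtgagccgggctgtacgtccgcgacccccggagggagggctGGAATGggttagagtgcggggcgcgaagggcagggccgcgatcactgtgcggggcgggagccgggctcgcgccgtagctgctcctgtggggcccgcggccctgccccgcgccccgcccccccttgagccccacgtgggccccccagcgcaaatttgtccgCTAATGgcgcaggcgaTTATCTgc
The Dusp6 region held 1 match each to the GATA, LIM homeodomain, TEAD and CArG motifs, and it is the sole FGF peak with a CArG match in its center. The Fgfr2 region held 3 GATA matches and 1 TEAD match, and the Spry2 region 2 GATA matches and 1 TEAD match. The Fgfr3 region held no GATA match but 3 TEAD matches and 1 NKX match. The Fgfrl1 region lies within 1 kb of a TSS, in DNA of 74.3% GC, with 1 match each to GATA, LIM homeodomain and TEAD.

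The peaks of Fgf10 are shown because Fgf10 marks the second heart field. Their centers came from the promoter, from an intron 44354 bp downstream of the TSS, and, for 100 bases, from a peak 144660 bp downstream.
Fgf10 promoter, chr13:119503472-119503771: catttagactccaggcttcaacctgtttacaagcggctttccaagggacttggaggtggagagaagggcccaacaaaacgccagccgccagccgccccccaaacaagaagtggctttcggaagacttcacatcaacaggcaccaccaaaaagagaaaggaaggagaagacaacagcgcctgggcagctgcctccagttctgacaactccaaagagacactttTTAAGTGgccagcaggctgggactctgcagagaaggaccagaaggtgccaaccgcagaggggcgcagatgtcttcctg
Fgf10 intron, chr13:119547711-119548010: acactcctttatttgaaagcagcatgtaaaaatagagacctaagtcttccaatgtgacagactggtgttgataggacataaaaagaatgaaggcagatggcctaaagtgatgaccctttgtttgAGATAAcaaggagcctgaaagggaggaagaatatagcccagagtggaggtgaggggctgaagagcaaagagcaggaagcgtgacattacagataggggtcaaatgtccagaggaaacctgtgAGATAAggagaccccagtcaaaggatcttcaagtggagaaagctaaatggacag
Fgf10 downstream, chr13:119648118-119648217: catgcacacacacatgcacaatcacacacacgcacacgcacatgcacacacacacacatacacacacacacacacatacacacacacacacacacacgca
The promoter center held 1 NKX match and the intron center 2 GATA matches. The downstream center is a run of CA repeats. Its 300 bp held 33 distinct 6-letter words at 295 positions, where the median over all peaks was 271, and 0.225% of all peaks were less complex. Reads in repeats of this kind can map to more than 1 place, and whether that bears on this peak was not tested.

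Fgf8 had no peak assigned to it, but it is flanked by 2 of the wider peaks of the list, which the assignment gave to its neighbors. Their centers are 7293 bp downstream and 3631 bp upstream, each measured from the nearest annotated Fgf8 start site.
Fgf8 downstream flank, chr19:45809732-45810031: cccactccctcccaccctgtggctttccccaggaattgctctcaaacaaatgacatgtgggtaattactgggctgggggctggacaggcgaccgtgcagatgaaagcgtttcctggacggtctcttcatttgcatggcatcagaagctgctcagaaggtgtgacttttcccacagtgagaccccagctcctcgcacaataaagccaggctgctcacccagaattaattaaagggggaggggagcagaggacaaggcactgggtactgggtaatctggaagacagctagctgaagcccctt
Fgf8 upstream flank, chr19:45820887-45821186: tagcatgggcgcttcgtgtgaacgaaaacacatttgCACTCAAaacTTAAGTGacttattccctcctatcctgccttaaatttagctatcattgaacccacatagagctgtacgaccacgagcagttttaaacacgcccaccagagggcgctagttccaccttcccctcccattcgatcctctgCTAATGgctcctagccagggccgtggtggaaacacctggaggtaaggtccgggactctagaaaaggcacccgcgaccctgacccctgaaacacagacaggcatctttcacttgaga
The downstream flank held no match to these 5 motifs. The upstream flank held 1 LIM homeodomain match and 2 NKX matches.

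Of the 37 genes, 28 had at least 1 peak (75.7%, 59.9 to 86.6%), where 62.5% of 21900 protein coding genes had one. The genes without one were Fgf2, Fgf7, Fgf8, Fgf11, Fgf16, Fgf17, Fgf20, Fgf21 and Spry3, so 8 of these 9 were ligand or ligand-like genes. By role, 14 of 22 genes named Fgf had a peak (63.6%, 43 to 80.3%), all 5 receptors, 7 of 8 feedback inhibitors, and both ETS targets. The genes named Fgf thus carried peaks about as often as coding genes at large, and 14 of 15 receptor, inhibitor and target genes carried them (93.3%, 70.2 to 98.8%). The exception was Spry3, which was not found in the mm9 gene models used (GENCODE vM1), so peaks around its start could not be checked.

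Genes of the pathway that had a peak tended to have several. The mean was 2.89 peaks per FGF gene with a peak and 1.71 over all 15351 genes with a peak, noncoding genes included. With the peaks wider than the median of the list alone, these means were 1.81 over 26 FGF genes and 1.25 over all 10466. Of the 28 genes, 17 had 3 or more, which 16.5% of all genes with a peak had, and 5 had 5 or more, where the share over all was 3.54%. Those 5 were Spred2 with 6 peaks and Dusp6, Fgfr2, Spry2 and Spry4 with 5 each, which are 4 inhibitors and 1 receptor. Which genes had 5 or more depended on the assignment: with the nearest coding TSS of GENCODE vM1 they were Fgfr2 with 8, Fgf1, Fgfr1 and Spred2 with 6 each and Spry2 with 5, while Dusp6 had 4 and Spry4 had 3. GENCODE vM1 also holds a long Fgfr2 transcript model that starts at the Ctbp2 promoter. The 8 can therefore include peaks of that region, and how many they are was not counted. By the deposited assignment Fgfr1 had 4, 11 genes had 3, 7 had 2, and Fgf4, Fgf13, Fgf22 and Spred1 had 1. Per gene with a peak, receptors averaged 3.6 peaks, inhibitors 3.86, ETS targets 2.5 and genes named Fgf 2.21. Counting the genes without one as well, the averages were 3.6 for receptors, 3.38 for inhibitors, 2.5 for ETS targets and 1.41 for genes named Fgf. A peak goes to the nearest start site, so genes in wide gaps can collect more: the median gap between the start sites of the neighboring coding genes was 294 kb for FGF genes with a peak and 108 kb for all genes with a peak. For all genes with 3 or more peaks it was 255 kb, and for FGF genes with 3 or more 321 kb. Among receptors, inhibitors and targets with 3 or more peaks it was 294 kb. The part of this spacing in the counts was not tested.

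**Figure D1:**
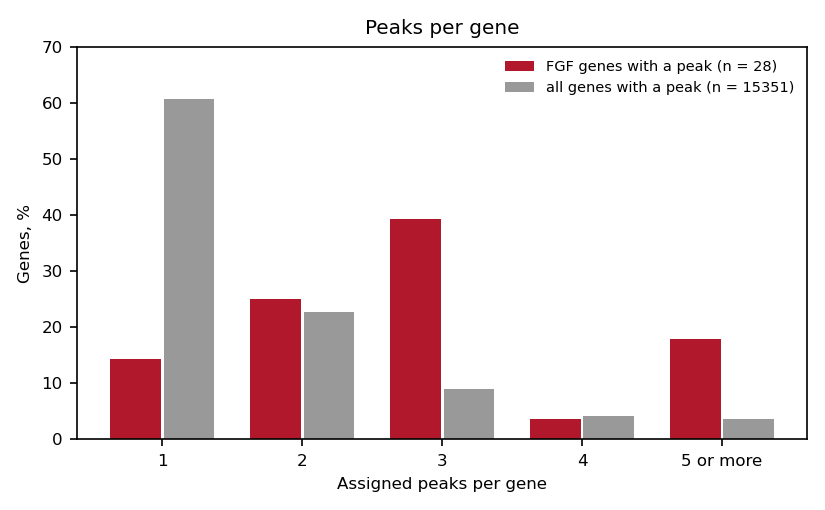
Share of genes (y axis, %) with 1, 2, 3, 4 or 5 or more assigned peaks (x axis), for the 28 FGF genes with a peak (red) and all 15351 genes with a peak (gray). A single peak was the most frequent count over all genes (60.8%) and 3 peaks the most frequent among FGF genes (39.3%).

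Of the 81 FGF peaks, 29 lay within 1 kb of the assigned TSS (35.8%, 26.2 to 46.7%), where 44.9% of all peaks did. Another 16 lay between 1 and 10 kb (19.8%, 12.5 to 29.7%; all peaks 13.8%) and 36 beyond 10 kb (44.4%, 34.1 to 55.3%; all peaks 41.4%). All 3 intervals contained the share of all peaks. Within the set, 15 of 31 peaks of genes named Fgf lay within 1 kb (48.4%, 32 to 65.2%) and 14 of 50 peaks of receptors, inhibitors and targets (28%, 17.5 to 41.7%). Beyond 10 kb the counts were 9 of 31 (29%, 16.1 to 46.6%) and 27 of 50 (54%, 40.4 to 67%). These intervals overlap, and no test of the difference was made because the peaks of 1 gene are not independent. Of the 15 peaks within 1 kb, 6 belonged to Fgf12, Fgf13 and Fgf14, whose proteins are not secreted. The secreted ligands alone had 9 of 24 peaks within 1 kb and 9 of 24 beyond 10 kb. By peak midpoint in the GENCODE vM1 gene models, 29 peaks were within 1 kb of a protein coding TSS, 18 in introns, 1 in a coding exon of Fgf23 and 33 between genes. These 29 are not all the same peaks as the 29 within 1 kb of the assigned TSS. The 3 Fgf12 peaks at assigned starts count here as between genes. The Fgf9 peaks of 1319 and 2289 bp and the Fgfr2 peak of 3375 bp count here as near a start. Of the 52 peaks beyond 1 kb, 32 were downstream and 20 upstream of the TSS, and 19 lay inside the gene they were assigned to. Both these 19 and the 18 intronic peaks include the Fgfr2 peak 6663 bp upstream of its assigned TSS. It counts as inside the gene by the GENCODE extent of Fgfr2, which is over 3 Mb.

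**Figure D2:**
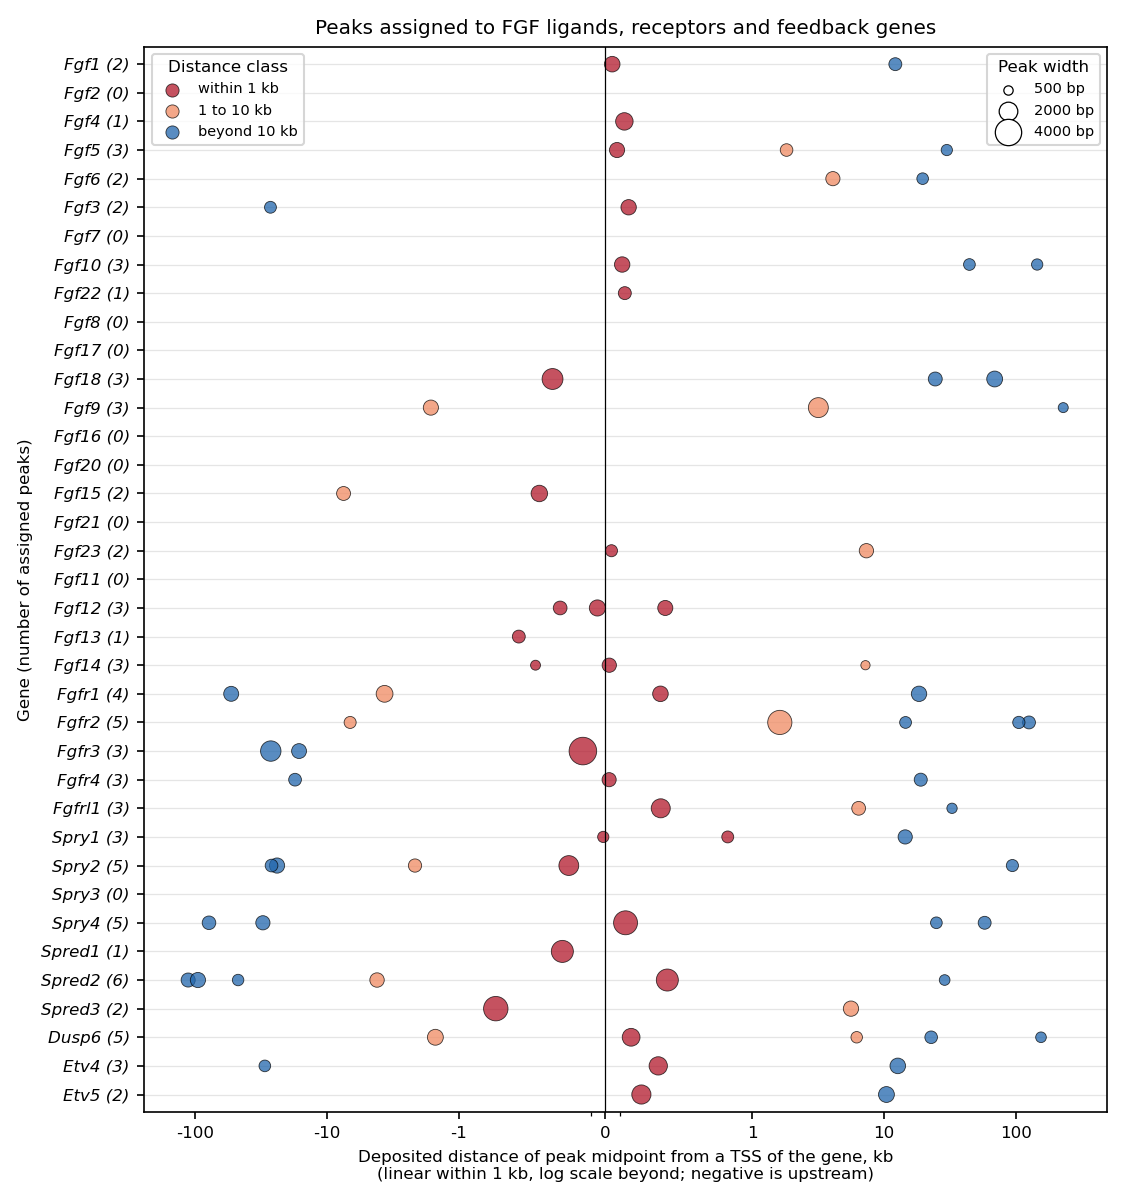
Each circle is 1 of the 81 peaks at its deposited distance from a TSS of its gene (x axis, kb; linear within 1 kb and logarithmic beyond), with 1 row per gene and the number of peaks in parentheses; circle area is proportional to peak width and color gives the distance class. The rows of Fgfr1, Fgfr2, Spry2, Spry4, Spred2 and Dusp6 hold peaks on both sides of the TSS, those of Fgfr3 lie upstream and those of Fgfrl1 downstream, and 9 rows are empty.

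Among the paracrine ligands, 9 of 15 genes had 20 peaks. Fgf10, a ligand of the Fgf7 subfamily, had 3: a promoter peak at chr13:119502937-119504305 (1369 bp), an intronic peak at chr13:119547463-119548258 (796 bp) and the repeat-centered peak at chr13:119647798-119648536 (739 bp). The widths of all 3 were ordinary, with the promoter peak wider than 53.6% of peaks within 1 kb and the others wider than 37% and 28% of peaks beyond 10 kb. In the same subfamily Fgf3 had a promoter peak of 1364 bp and a peak 26762 bp upstream of its TSS, and Fgf22 had 1 promoter peak of 971 bp. Fgf7, a ligand made by mesenchymal cells, had no peak of any assignment within 100 kb; the nearest lay 117218 bp away and was assigned to Dtwd1.

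All 3 genes of the Fgf4 subfamily had a peak. Fgf4, which is active in early embryo cells and embryonic stem cells, had a single promoter peak of 1760 bp at chr7:152046541-152048300. Fgf5, a ligand of the epiblast, had a promoter peak of 1325 bp, an intronic one of 915 bp that began 626 bp further on, and 1 of 730 bp at 29898 bp downstream. Fgf6, known mainly from skeletal muscle, had no promoter peak and had an intronic peak of 1160 bp at 4096 bp and a peak of 781 bp at 19615 bp downstream. Fgf3, Fgf4 and Fgf15 are neighbors on chromosome 7, and these 3 genes shared a stretch with 5 peaks, 1 promoter peak at each gene and 1 upstream peak each at Fgf3 and Fgf15.

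In the Fgf8 subfamily the assignment and the map differed. Fgf18 had a promoter peak of 2516 bp at chr11:33046504-33049019, wider than 95.7% of peaks within 1 kb, and peaks 24440 and 68919 bp downstream. Fgf8, at chr19:45811288-45817405 on the minus strand, had none by assignment, and its CpG-rich promoter held none. The downstream flank peak at chr19:45807383-45812379 was 4997 bp wide, overlapped the end of the gene by 1092 bp, was assigned to 4933429K18Rik and was wider than 99.8% of the peaks of its distance class. The upstream flank peak at chr19:45819488-45822584 was 3097 bp wide, assigned to Npm3, and wider than 98.2% of its class. A smaller peak of 665 bp lay 24911 bp downstream of the nearest annotated Fgf8 start site. Which gene any of these regions acts on was not measured. Fgf17, the remaining member, had no assigned peak either, and the nearest one, 2160 bp wide and assigned to Dmtn, overlapped the gene by 761 bp at 6383 bp from its TSS.

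**Figure D3:**
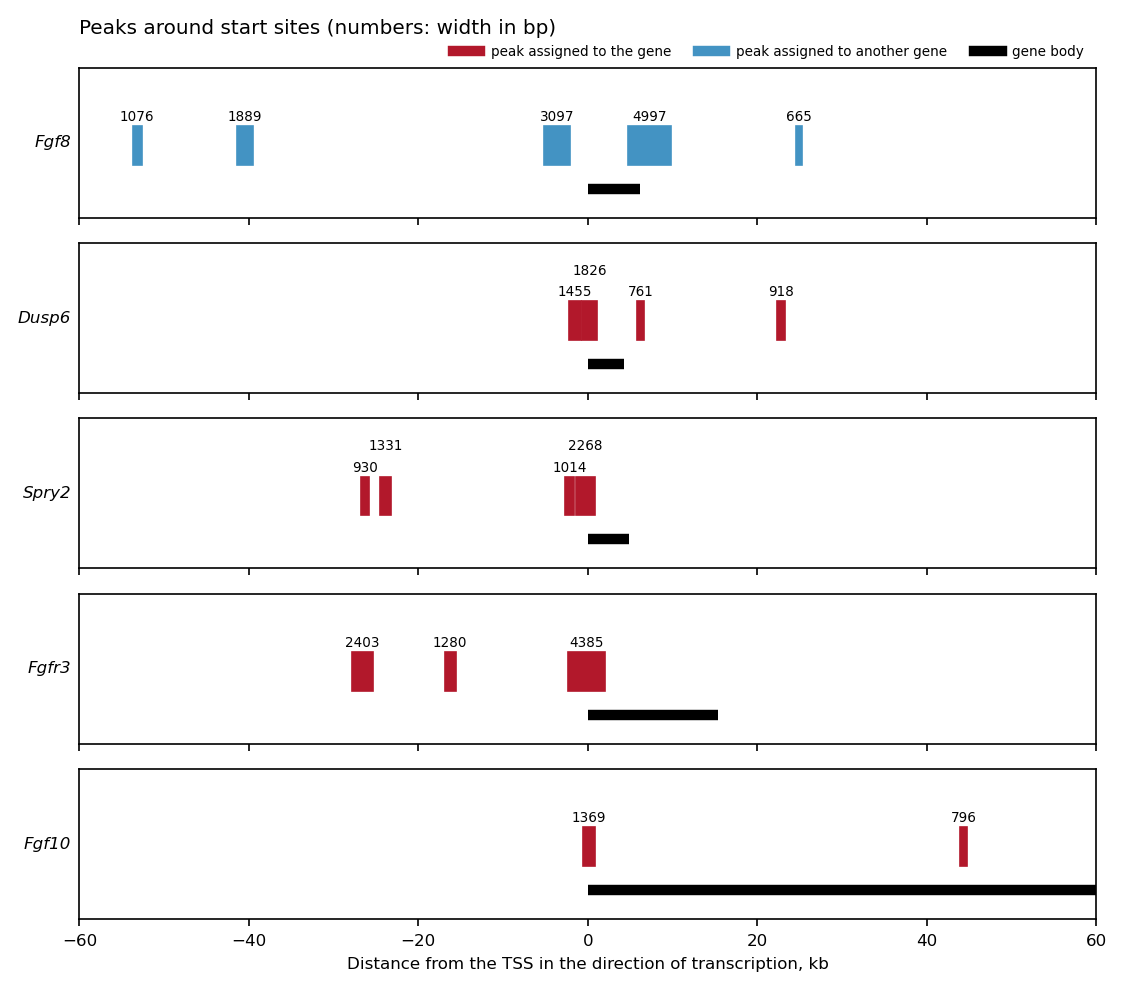
Peaks (boxes, drawn to scale, with widths in bp above them) within 60 kb of the TSS of Fgf8, Dusp6, Spry2, Fgfr3 and Fgf10; the x axis is the distance from the TSS in kb along the direction of transcription, red boxes are peaks assigned to the gene, blue boxes peaks assigned to another gene, and black bars the gene body. Peaks assigned to another gene are drawn at Fgf8 only, and the other rows show only peaks assigned to the gene, so colors cannot be compared between rows. In the Fgf8 row each distance is from the annotated start site nearest to that peak. At Fgf8 all boxes are blue and the 4997 and 3097 bp peaks stand on either side of the TSS, while at Dusp6 and Spry2 2 red boxes stand side by side near the TSS.

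For the other secreted ligands, Fgf1 had a peak of 1403 bp at an internal start site and another 12176 bp downstream, and Fgf2, the gene of the bFGF added to the medium, had none. The peak nearest to Fgf2 was 35870 bp from its TSS and was assigned to Cetn4. Fgf9, a ligand of the epicardium and endocardium in the developing heart, had peaks of 1319 bp (1629 bp upstream) and 2289 bp (3178 bp downstream) of the assigned TSS. Neither covered that TSS, but both lay within 1 kb of other annotated Fgf9 start sites. Its remaining peak, 228004 bp downstream, was the most distant in the set, and at 579 bp it was wider than 8.29% of peaks beyond 10 kb. Fgf16 had no peak within 100 kb, with the nearest 165000 bp away at Atrx. Fgf20 had none by assignment; a peak of Micu3 covered its most upstream annotated start, which belongs to a transcript of putative status, and its other start was not covered.

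Of the hormone-like FGFs, which act through Klotho co-receptors, Fgf15 had a promoter peak of 1566 bp and 1 peak 7475 bp upstream, and Fgf23 had a promoter peak of 839 bp and the exonic peak 7352 bp downstream. Fgf21 had none, and the nearest peak was 13490 bp upstream of it. The intracellular FGFs, Fgf11 to Fgf14, are not secreted and bind sodium channels. Of their 7 peaks, 6 lay within 1 kb of an assigned start site, and these were often alternative starts. Fgf12 had 3 at start sites more than 100 kb apart, of 1091, 1310 and 1503 bp, and only the first of these stood near a transcript in GENCODE vM1. Fgf14 had peaks near both of its annotated starts, of 1178 and 569 bp, and the 569 bp peak lay upstream of its start without covering it. Its remaining peak of 494 bp, the narrowest in the set, lay 7231 bp downstream. Fgf13 had 1 peak 591 bp upstream of the start of its isoform Fgf13-001, which it did not cover, and none at its most upstream start. Fgf11 had none, and the nearest lay 1673 bp upstream and was assigned to G630025P09Rik.

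All 5 receptors had peaks, 18 together. Fgfr1, the main receptor of mesoderm, had 4: 1 of 1398 bp at 375 bp downstream (chr8:26628908-26630305), an intronic one of 1626 bp at 3654 bp upstream of that start, 1 of 1366 bp at 18410 bp downstream and 1 of 1293 bp at 53096 bp upstream. Fgfr2, the receptor of Fgf10 in epithelia, had a peak of 3375 bp at chr7:137407014-137410388, which covered its assigned TSS although its midpoint lay 1622 bp downstream; it was wider than 98.7% of peaks between 1 and 10 kb. The other 4 peaks of Fgfr2 were narrower, from 808 to 963 bp, and 2 of them lay 105073 and 125424 bp downstream, between genes.

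Fgfr3 had the widest peak of the set, 4385 bp at chr5:34062610-34066994, wider than 99.8% of all peaks within 1 kb. It also had upstream peaks of 1280 bp at 16250 bp and of 2403 bp at 26612 bp, and the latter was wider than 99% of all peaks beyond 10 kb. Fgfr4 had a promoter peak of 1153 bp, which was narrower than the median of 1326 bp for peaks within 1 kb, and 1 peak on each side at 17424 bp upstream and 18971 bp downstream. Fgfrl1, a receptor without a kinase domain, had a promoter peak of 2089 bp, an intronic one of 1098 bp and 1 of 617 bp at 32745 bp downstream. Among the receptors, the promoter peaks of Fgfr4 and Fgfr1 thus lay between the quartiles of peaks within 1 kb (1072 and 1691 bp). That of Fgfr3 lay at the upper end of such peaks.

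The Sprouty genes with a peak were Spry1, Spry2 and Spry4, with 13 peaks. At Spry2 a promoter peak of 2268 bp (chr14:106295153-106297420) was joined on its upstream side, after a gap of 258 bp, by 1 of 1014 bp. Together they spanned 3540 bp. Once all peaks at most 1 kb apart were joined, this was wider than 99.2% of the 25845 regions of the list. Only 386 of those regions held more than 1 peak, so the rank is mostly against single peaks. A second pair lay 23856 and 26268 bp upstream, and the region with 2 GATA matches lay 93883 bp downstream. At Spry1 the promoter was covered by 2 narrow peaks of 729 and 822 bp, 73 bp apart, which spanned 1624 bp when joined. The remaining Spry1 peak of 1167 bp lay 14466 bp downstream. Joining all peaks at most 1 kb apart, an alternative chosen after the data were seen, left 77 FGF regions. In all, 8 of 81 FGF peaks had a neighbor within 1 kb, where 2.95% of all peaks did; they were 4 pairs, at Spry1, Spry2, Dusp6 and Fgf5.

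Dusp6 had 5 peaks. The promoter peak of 1826 bp (chr10:98725128-98726953) and a peak of 1455 bp stood 40 bp apart and spanned 3321 bp. That was wider than 98.9% of the 25845 regions left after joining, most of which were single peaks. The other Dusp6 peaks lay 6206, 22753 and 154669 bp downstream, with widths of 761, 918 and 657 bp. The one at 22753 bp (chr10:98748160-98749077) is the region with the GATA, LIM homeodomain, TEAD and CArG matches.

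Among the Spred genes, whose proteins keep Ras from activating Raf, Spred2 had the most peaks of any gene in the set. Its promoter peak was 2796 bp (chr11:19823470-19826265), and the other 5 lay 4167, 47066, 94893 and 112491 bp upstream and 28790 bp downstream. Spred1 had a single promoter peak, of 2797 bp, so that 2 genes of 1 family with promoter peaks of almost equal width had 6 peaks and 1. Spred3 had a promoter peak of 3443 bp, which also lies within 1 kb of the start of Ggn and cannot be given to either gene, and an intronic peak of 1348 bp. The ETS targets Etv4 and Etv5 had promoter peaks of 1934 and 2121 bp. Each also had an intronic peak, of 1401 bp at 12709 bp and of 1451 bp at 10428 bp downstream, and Etv4 had 1 more at 29524 bp upstream.

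The remaining Sprouty gene, Spry4, lies near Fgf1 on chromosome 18. Its promoter peak was 3302 bp wide, wider than 99% of peaks within 1 kb, and also lies within 1 kb of the start of 9630014M24Rik. The other 4 Spry4 peaks lay 24923 and 57864 bp downstream and 30542 and 78215 bp upstream, the last in an intron of Arhgap26, as was the peak 12176 bp downstream of the Fgf1 TSS. That Fgf1 peak also lies inside the Fgf1 gene itself.

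By median, promoter peaks were wider at receptor, inhibitor and target genes than at genes named Fgf. The 14 peaks within 1 kb of receptor, inhibitor or target genes had a median of 2105 bp (quartiles 1505 and 2797 bp) and 6 of them were among the widest 10% of all such peaks. The 15 peaks within 1 kb of genes named Fgf had a median of 1325 bp (quartiles 1031 and 1453 bp), and 1 of them, at Fgf18, was among the widest 10%. Of the 15, 6 were peaks of Fgf12, Fgf13 and Fgf14, which are not secreted, with widths from 569 to 1503 bp. The median over all peaks within 1 kb was 1326 bp (quartiles 1072 and 1691 bp). Over the set 7 of 29 were in the widest class, which by its cut held 9.98% of all. Beyond 10 kb the widths were closer: 964 bp for receptors, inhibitors and targets, 796 bp for genes named Fgf and 880 bp for all. These medians are descriptions with no test, since replicate widths were not given and the width of an interval depends on the caller and on read depth.

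**Figure D4:**
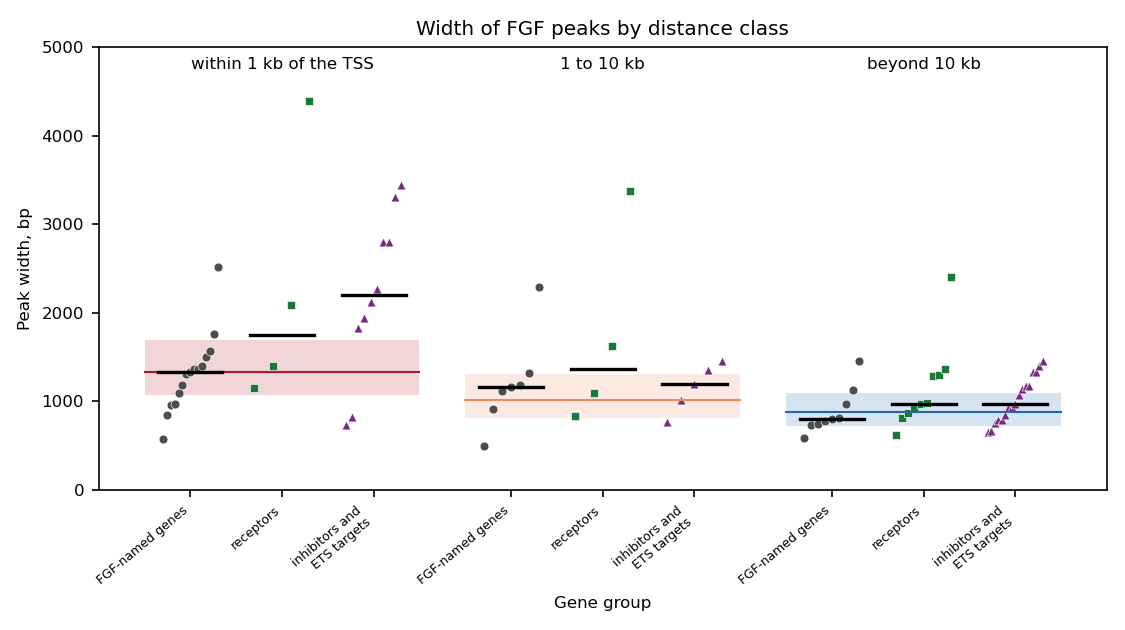
Width in bp (y axis) of each FGF peak by distance class and gene group (x axis); circles are genes named Fgf, squares receptors and triangles inhibitors and ETS targets, black bars are group medians, and the colored line and band give the median and quartiles of all peaks of the class. Within 1 kb, most triangles lie above the band, the exceptions at its lower side being the 2 adjoining Spry1 peaks of 729 and 822 bp.

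Promoters were also examined without the nearest-gene assignment, as the 5′-most protein coding start of each gene with 500 bp on either side. Of 36 FGF genes in the annotation, 24 had a peak of any assignment there (66.7%, 50.3 to 79.8%). CpG-rich promoters are open in many cell types, and 89.4% of all such promoters overlapped a peak, compared with 24.9% of the CpG-poor ones. Of the 22 CpG-rich FGF promoters 17 overlapped a peak, and the count split by role: all 12 of receptors, inhibitors and targets, and 5 of 10 of genes named Fgf. The CpG-rich promoters without a peak were those of Fgf2, Fgf8, Fgf12, Fgf13 and Fgf16. For Fgf12 and Fgf13 a peak stood at or near another start site. For Fgfr2 the 5′-most start belonged to a transcript model of over 3 Mb that reaches the Ctbp2 promoter, and for Fgf20 it was the start shared with the Micu3 peak, so neither of these calls describes the gene's own promoter. Of the 14 CpG-poor FGF promoters 7 overlapped a peak, those of Fgf3, Fgf9, Fgf10, Fgf14, Fgf22, Fgf23 and Spred3. Fgf10 is among them with a promoter of 59.4% GC and a CpG ratio of 0.53, below the 0.6 required. Counting any peak within 10 kb of a start site, 32 of 36 FGF genes had one (88.9%, 74.7 to 95.6%; all coding genes 66.7%), and within 100 kb 34 of 36 (94.4%; all 88%).

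For most motifs the share over all peaks lay inside the interval for FGF peaks, which at these numbers is wide. Each motif was searched on both strands in the central 300 bp, so that peak width played no part. In the 52 peaks beyond 1 kb, the GATA motif was found in 8 (15.4%, 8.01 to 27.5%), where 14.6% of all such peaks held it, and the TEAD motif in 13 (25%, 15.2 to 38.2%), where 22.4% of all did. The NKX motif was in 3 (5.77%; all peaks 5.73%), AP-1 (TGANTCA) in 4 (7.69%; all peaks 9.88%) and the E-box CAGCTG in 16 (30.8%, 19.9 to 44.3%; all peaks 24.6%). The LIM homeodomain motif was in 2 of the 52, at Spry4 and Dusp6 (3.85%, 1.06 to 13%), where 9.67% of all peaks beyond 1 kb held it. Within 1 kb, the SP motif GGGCGG was in 17 of 29 (58.6%, 40.7 to 74.5%), where 66.5% of all did, and the ETS motif CCGGAAG in 1, at Fgf5 (3.45%, 0.611 to 17.2%), where 14.4% of all did. The LIM homeodomain motif was there in 3, at Fgf14, Fgf23 and Fgfrl1 (10.3%, 3.58 to 26.4%; all peaks within 1 kb 2.72%). Of 20 intervals, for 10 motifs and 2 classes, this was the 1 that left out the share of all peaks, and it rested on 3 peaks. Peaks with 3 or more matches to the GATA, LIM homeodomain, NKX, TEAD and CArG motifs were 5 of 81, where 2.48% of all peaks had as many, and 53 of 81 had none. A missing match says only that those letters were not in that window.

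**Figure D5:**
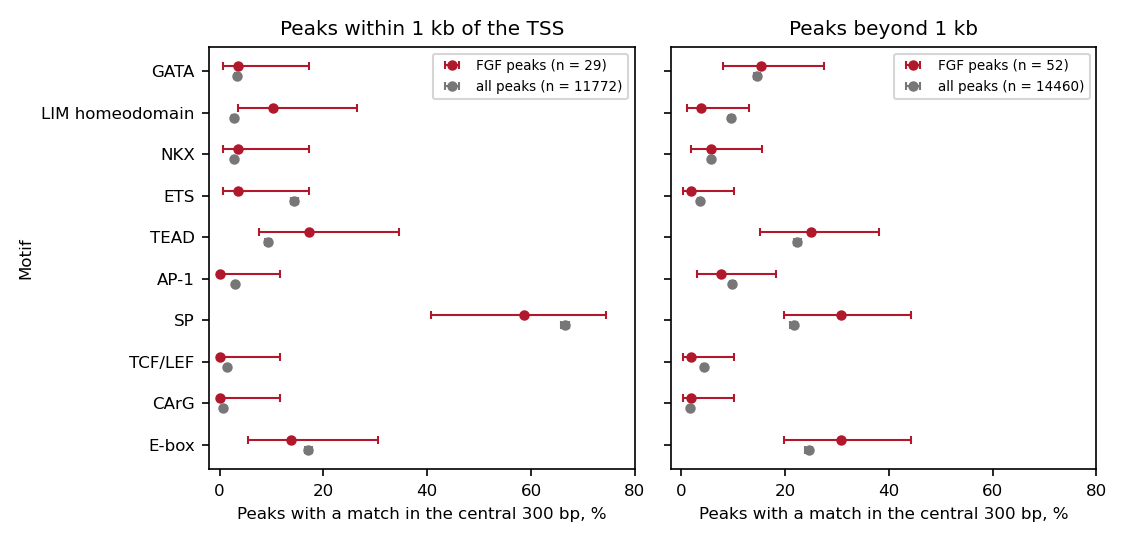
Share of peaks (x axis, %) with a motif (y axis) in the central 300 bp, for FGF peaks (red) and all peaks (gray), within 1 kb of the TSS (left) and beyond (right); bars are 95% Wilson intervals. Red bars span the gray points except for the LIM homeodomain motif within 1 kb, 3 of 29 FGF peaks.

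The rest of the pathway carried peaks at most of its genes, where 62.5% of all coding genes had one. Of 24 co-receptors and modulators matched in the list, which help ligands reach receptors or trim the heparan sulfate they need, 22 had a peak, with 70 peaks in all; the highest counts were 7 at Hs6st1, a heparan sulfate sulfotransferase, and 6 each at Ext1, a heparan sulfate polymerase, and Flrt3. Klb and Flrt1 had none. Of 23 genes of the cytoplasmic cascade, from adaptors to ERK, 21 had a peak and 23 had one over the promoter, since the peaks at Frs3 and Pik3ca were assigned to neighbors. Of these 23 promoters 22 are CpG-rich, a class in which 89.4% of all promoters overlapped a peak. The cascade genes averaged 1.81 peaks per gene with a peak, and the receptors and inhibitors 3.6 and 3.86. Of 13 other feedback or target genes 12 had a peak, with 7 at the immediate early gene Ier2 and 4 each at Fos and Il17rd. By the same counting, Wnt ligands and Frizzled receptors had peaks at 27 of 29 genes with 2.33 per gene with a peak, BMP and TGF-beta ligands and receptors at 37 of 41 with 2.16, and Notch genes at 11 of 11 with 2.09. The FGF set had peaks at 28 of 37 genes with 2.89 per gene with a peak, while co-receptors and modulators had 3.18. Of the marker lists described below, cardiac progenitor markers had 3.69, pluripotency markers 3.5 and neural markers 3. Endothelial and blood markers had 2.67, and fibroblast and endoderm markers 2.75 each. Over all genes, with or without a peak, the FGF, Wnt and Frizzled, BMP and TGF-beta, and Notch lists lay closer, at 2.19, 2.17, 1.95 and 2.09. These are counts side by side with no test.

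The label of the cells was checked against lists of marker genes. Of 14 cardiac progenitor markers 13 had a peak, with 8 at Isl1, and Hand2 had none. However, 6 of 8 pluripotency, 6 of 9 endothelial and blood, 7 of 7 neural, 4 of 6 fibroblast and 4 of 6 endoderm markers also had one. High counts were not limited to the cardiac list either, with 8 at the pluripotency gene Klf4 and 7 each at the blood gene Runx1 and the endoderm gene Foxa2. Presence of a peak therefore does not tell these cell types apart, and whether some FGF peaks came from other cells in the culture was not tested.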

How the data were processed

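ATAC-seq libraries came from 2 replicates of day 5 CPCs. Per the study's methods, the authors mapped reads to mm9 with bowtie2, filtered them with samtools, removed duplicates with Picard 1.136, called peaks in each replicate with MACS14 using a fixed shift and no fitted model, removed blacklisted regions and kept peaks that overlapped between replicates (bedtools 2.15). No correction for the Tn5 cut position is described. HOMER is described for assigning the nearest TSS to ChIP-Seq peaks. The deposited values are interval starts and ends and a signed distance to a TSS, in bp, with no score or count among them, so depth was unknown.

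Of 26429 lines, 26232 distinct intervals were kept (82 FGF lines gave 81). Gene models were GENCODE vM1 on NCBIM37 (36 of 37 genes; Spry3 was not found), and gene totals came from a RefSeq table (GRCm38.p6, names only). 47 of the 81 distances equaled one to a GENCODE TSS of the gene within 1 bp. Promoters were the most upstream coding start of a gene and 500 bp around it in each direction, and were CpG-rich at a CpG observed over expected ratio of at least 0.6 and at least 50% GC. Gaps between neighboring genes were taken around the 5′-most start, and for Fgfr2 around its assigned TSS. In the pathway lists Anos1 and Hras1 were not matched. All member genes are named, with coordinates for the peaks described. Members, lists and alternatives were chosen with earlier results of these data known. With 1 group no test between groups was made and no p-value is given. Python 3.11.15, pandas 2.3.3, statsmodels 0.14.6 and pysam 0.24.0 were used; the motif search was tested on simulated data.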

Additional observations from a re-analysis of the deposited data

How the results depend on the processing

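Of 26 alternative settings for 6 measures of the set, 20 gave shares within the interval of the reported one, or counts and widths close to it. Restricting the list to peaks wider than its median left 47 FGF peaks, 48.9% of them within 1 kb of the TSS and 1.81 peaks per FGF gene with a peak (2.89 in the full list). The share of FGF genes with a peak rose from 75.7% to 88.9% when any peak within 10 kb of a start site counted, and to 94.4% within 100 kb, since these windows also take peaks assigned to neighbors. A limit of 10 kb in place of 1 kb put 55.6% of FGF peaks near the TSS. Assigning peaks to the nearest GENCODE coding TSS gave 90 FGF peaks, a count that can include peaks near the Ctbp2 promoter given to Fgfr2. Of 40 alternatives for the 20 motif shares, 19 moved beyond their intervals, as searching the whole peak or a narrower window changes the length searched; of 148 per-gene counts 23 moved. No paired analysis was possible because there was 1 group, and no replicate could be left out because the list holds none apart. Depth was unknown, so missing peaks cannot be told from regions below the calling threshold.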
